A study of Mus musculus with 4 samples.

Results

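The 10 genes followed here form the core of the antioxidant response: Nfe2l2, which encodes the transcription factor NRF2, and genes for enzymes and a carrier that make or use glutathione and thioredoxin or break down haem and quinones. They are a list of names set with earlier results of these data known, with no threshold on their values, and 10 of 10 were measured, among 19040 genes present in the count tables of both brain regions. NRF2 is held at low levels by KEAP1, which marks it for degradation; oxidants and electrophiles stop this, and NRF2 then binds antioxidant response elements together with small MAF proteins, while BACH1 competes for the same elements. Astrocytes are known for a strong antioxidant response. They import cystine in exchange for glutamate and supply neurons with precursors of glutathione.

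Cells of 2 brain regions, frontal cortex and midbrain, were dissociated by a protocol meant for glial and vascular cells and profiled by droplet RNA sequencing of transcript 3′ ends. The transgenic mice carried the strain label Hua-Syn(A53T) and the wildtype mice were littermates on C57BL/6, all 6 to 9 months old. No other treatment was named, and each of the 4 combinations of region and genotype was 1 library. The labels give 3 mice a group, with both regions taken from them, although the mouse number field reads 3 for frontal cortex and 0 for midbrain. No cell is assigned to a mouse, so the spread between mice cannot be measured. In the transgenic line of this name the transgene is driven by the promoter of the prion protein gene Prnp. The Prnp level of the transgenic library exceeded that of wildtype for 14 of 14 cell labels in frontal cortex and 14 of 15 in midbrain. These counts include labels with few cells, down to 2 transgenic and 3 wildtype cells for Hb_EC of frontal cortex.

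The libraries held 3775 to 7635 cells and 30712684 to 56588233 transcript counts (unique molecular identifiers, UMIs), and any pair of them shared 3 to 15 cell barcodes. Levels below are UMIs scaled to a total of 1e+06 UMIs (CPM), summed over all cells of a label. Where 2 values stand with "against", the transgenic library comes first. Levels were compared between cell types for each gene, not between genes. With 1 library per group there is no spread between replicates, no test and no p-value, and all intervals are 95% and cover counting error only. The deposited labels AC (astrocytes; 868 transgenic and 1067 wildtype cells in frontal cortex, 1512 and 2644 in midbrain), MG (microglia) and EC (endothelial cells) carried their markers: 10 and 11 of 12 astrocyte markers were highest in AC, and 10 of 10 microglial and 9 of 9 endothelial markers in MG and EC in both regions. MAC held 7 of 7 border macrophage markers. Other labels carried markers of other types: OPC held 6 and 7 of 8 fibroblast markers in frontal cortex and midbrain (and 6 of 7 oligodendrocyte progenitor markers in frontal cortex), CPC of frontal cortex 6 of 6 olfactory ensheathing markers and CPC of midbrain 6 of 6 choroid plexus markers, imNeur of midbrain 7 of 7 oligodendrocyte progenitor markers, and OLG 1 of 8 oligodendrocyte markers in each region. These labels are given below as deposited.

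The transgenic libraries differed from the wildtype ones in ways that touch the genotype comparisons. In frontal cortex astrocytes the 5 erythroid markers summed to 314 CPM, against 20.1 CPM in wildtype, and in midbrain astrocytes to 260.5 CPM, against 47.0 CPM, with all 5 higher in the transgenic library of each region and none at 0. The median share of mitochondrial UMIs in astrocytes was 9.68% (wildtype 5.27%) in frontal cortex and 7.07% (wildtype 6.54%) in midbrain. In frontal cortex astrocytes the 10 microglial markers summed to 562 against 1113 CPM and the 9 endothelial markers to 264 against 653 CPM, with 0 of either list higher in the transgenic library. In midbrain astrocytes the microglial sums were 284 against 256 CPM and the 6 choroid plexus markers 1953 against 3531 CPM. The part of these differences in the results below was not tested except where values without such cells are given.

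The sequence just before the start of a gene can be read for the elements that NRF2 and ATF4, the transcription factor of the amino acid response, are known to bind. RefSeq windows (GRCm38.p6) of 250 bases before the start were found for 8 of the 10 genes, all but Hmox1 and Gclc. The antioxidant response element core was searched as TGACNNNGC or TGAGNNNGC, the amino acid response element as TGATGNAAN and the AP-1 site as TGANTCA, each on both strands. The first was present in 5 of the 8 genes (Nfe2l2, Slc7a11, Gclm, Srxn1 and 1 start of Txnrd1), against 25.7% of all genes. Srxn1 and Slc7a11 are shown because they were the genes past the fold used below in frontal cortex astrocytes, in opposite directions. Capitals mark the antioxidant cores and, in Slc7a11, also the amino acid response elements, at chr2:152105274-152105523 on the plus strand and at chr3:50443614-50443863 on the minus strand.
Srxn1: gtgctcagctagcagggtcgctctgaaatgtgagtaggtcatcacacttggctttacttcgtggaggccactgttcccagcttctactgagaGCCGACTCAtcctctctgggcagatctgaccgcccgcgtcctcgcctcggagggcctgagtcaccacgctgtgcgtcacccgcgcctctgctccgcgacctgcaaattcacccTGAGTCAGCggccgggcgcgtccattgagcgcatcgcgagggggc
Slc7a11: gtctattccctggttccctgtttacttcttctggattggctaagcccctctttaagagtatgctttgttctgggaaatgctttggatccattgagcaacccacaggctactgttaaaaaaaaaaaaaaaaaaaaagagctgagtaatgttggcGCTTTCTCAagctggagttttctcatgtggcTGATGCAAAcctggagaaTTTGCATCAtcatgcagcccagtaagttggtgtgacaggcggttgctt
Srxn1 held 2 antioxidant cores, starting at positions -158 and -45 from the start, and 2 AP-1 sites, at -102 and -45, of which the latter overlapped an antioxidant core. Slc7a11 held 1 antioxidant core, at -97, and 2 amino acid response elements, at -66 and -48. Amino acid response elements were found in 3.89% of all genes and AP-1 sites in 7.82%. A match describes the letters and not a bound site.

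Nfe2l2 (chr2:75675513-75704641, minus strand, GRCm38) was highest in border macrophages or microglia in each of the 4 libraries. In border macrophages its level was 284 CPM in transgenic and 381 CPM in wildtype frontal cortex, and 317 and 348 CPM in midbrain. Microglia held 279.5, 315, 321 and 329 CPM in the same order. The counting intervals of the 2 labels overlapped in 3 of the 4 libraries, all but wildtype frontal cortex. Endothelial cells (92.3 to 102 CPM) and astrocytes (73.2 to 98.3 CPM) held lower levels, and cells labelled mNeur in frontal cortex the lowest, 6.81 and 9.62 CPM.

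Slc7a11 (chr3:49892526-50443614, minus strand), the transporter subunit of the cystine-glutamate antiporter, ranged widely across labels. It was highest in the cells labelled OPC, at 1458 and 1485 CPM in the transgenic and 1932 and 1878 CPM in the wildtype libraries of frontal cortex and midbrain. Astrocytes held 258 to 405 CPM, midbrain cells labelled TNC 409 and 536 CPM, and frontal cortex cells labelled CPC 427 and 399 CPM. Endothelial cells held 2.50 to 3.49 CPM and microglia 6.00 to 17.4 CPM. At a depth of 3000 UMIs per cell, to which deeper cells were thinned, 43.0% to 59.7% of astrocytes and 0.588% to 0.923% of endothelial cells had a Slc7a11 UMI, which serve here as the reference for free RNA.

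The 2 subunits of glutamate-cysteine ligase, the first enzyme of glutathione synthesis, were spread more evenly and differently from each other. Gclm (chr3:122245557-122270732, plus strand), the modifier subunit, was highest in endothelial cells of frontal cortex (151 and 150.1 CPM), followed by astrocytes (139 and 126 CPM). In midbrain it was highest in cells labelled TNC (264 and 263 CPM, from 25 and 43 cells). EPC and endothelial cells followed (143 to 167 CPM), with astrocytes at 86.6 and 85.6 CPM. Gclc (chr9:77754535-77794485, plus strand), the catalytic subunit, was highest in EPC of midbrain (148 and 158 CPM) and in OLG of frontal cortex (104 and 77.8 CPM, from 27 and 34 cells). With cells under 5% mitochondrial UMIs the highest label became MG in both transgenic libraries and CPC in wildtype frontal cortex. With thinned cells it became MG in wildtype frontal cortex. The Gclc level in microglia was 51.4 to 59.4 CPM, in astrocytes 38.2 to 47.0 CPM and in endothelial cells 31.3 to 36.9 CPM.

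The 2 glutathione peroxidases differed in which of the large labels held least. Gpx1 (chr9:108338903-108340343, plus strand), which removes hydrogen peroxide in the cytosol, was lowest in astrocytes in each of the 4 libraries, at 28.0 to 41.4 CPM. It reached 499 to 605 CPM in border macrophages, 275 to 372 CPM in microglia and 243 to 323 CPM in endothelial cells, and 785 and 594 CPM in midbrain cells labelled MNC. Gpx4 (chr10:80047166-80056439, plus strand), which reduces lipid hydroperoxides in membranes and guards against ferroptosis, was lowest in microglia among the 3 large labels, at 228 to 248 CPM. Astrocytes held 378 to 449.8 CPM, endothelial cells 528 to 569.8 CPM, and the midbrain cells labelled CPC, with choroid plexus markers, 1749 and 2024 CPM.

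Of the thioredoxin genes, Txnrd1 (chr10:82833951-82897712, plus strand), the cytosolic reductase that recharges thioredoxin, peaked in cells labelled imNeur in frontal cortex (193 and 229 CPM) and mNeur in midbrain (138 and 149.9 CPM). Its level was 41.2 to 67.2 CPM in astrocytes, 41.9 to 49.98 CPM in microglia and 45.5 to 48.7 CPM in endothelial cells. Srxn1 (chr2:152105516-152111376, plus strand), the sulfiredoxin that repairs overoxidised peroxiredoxins, stayed under 40 CPM in each label and library. It was highest in mNeur in transgenic and wildtype frontal cortex (38.5 and 30.6 CPM) and wildtype midbrain (36.8 CPM), and in OPC in transgenic midbrain (31.7 CPM). Microglia held 2.74 to 3.52 CPM. Transgenic frontal cortex astrocytes, at 23.8 CPM, came after mNeur and OPC, with counting intervals that overlapped that of OPC.

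Hmox1 (chr8:75093621-75100589, plus strand), the inducible haem oxygenase, was highest in border macrophages, whose counting interval overlapped that of microglia in transgenic midbrain. Border macrophages held 261 and 226 CPM in transgenic and wildtype frontal cortex and 136 and 234 CPM in midbrain. Microglia held 83.4, 95.7, 125 and 126.0 CPM in the same order, and astrocytes 17.04, 6.00, 8.77 and 8.62 CPM. Nqo1 (chr8:107388225-107403206, minus strand), a quinone reductase often read as a marker of NRF2 activity, was highest in OLG of frontal cortex (69.2 and 53.4 CPM, from 27 and 34 cells) and in CPC of midbrain (84.9 and 75.4 CPM). In wildtype midbrain OLG followed at 72.3 CPM, from 54 cells, and came first under some alternative settings. In frontal cortex AC came first with cells under 5% mitochondrial UMIs. Nqo1 stood at 9.17 to 12.4 CPM in astrocytes, and was at or under 1.52 CPM in microglia, macrophages and pericytes, with 0 UMIs in several of these libraries.

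**Figure D1:**
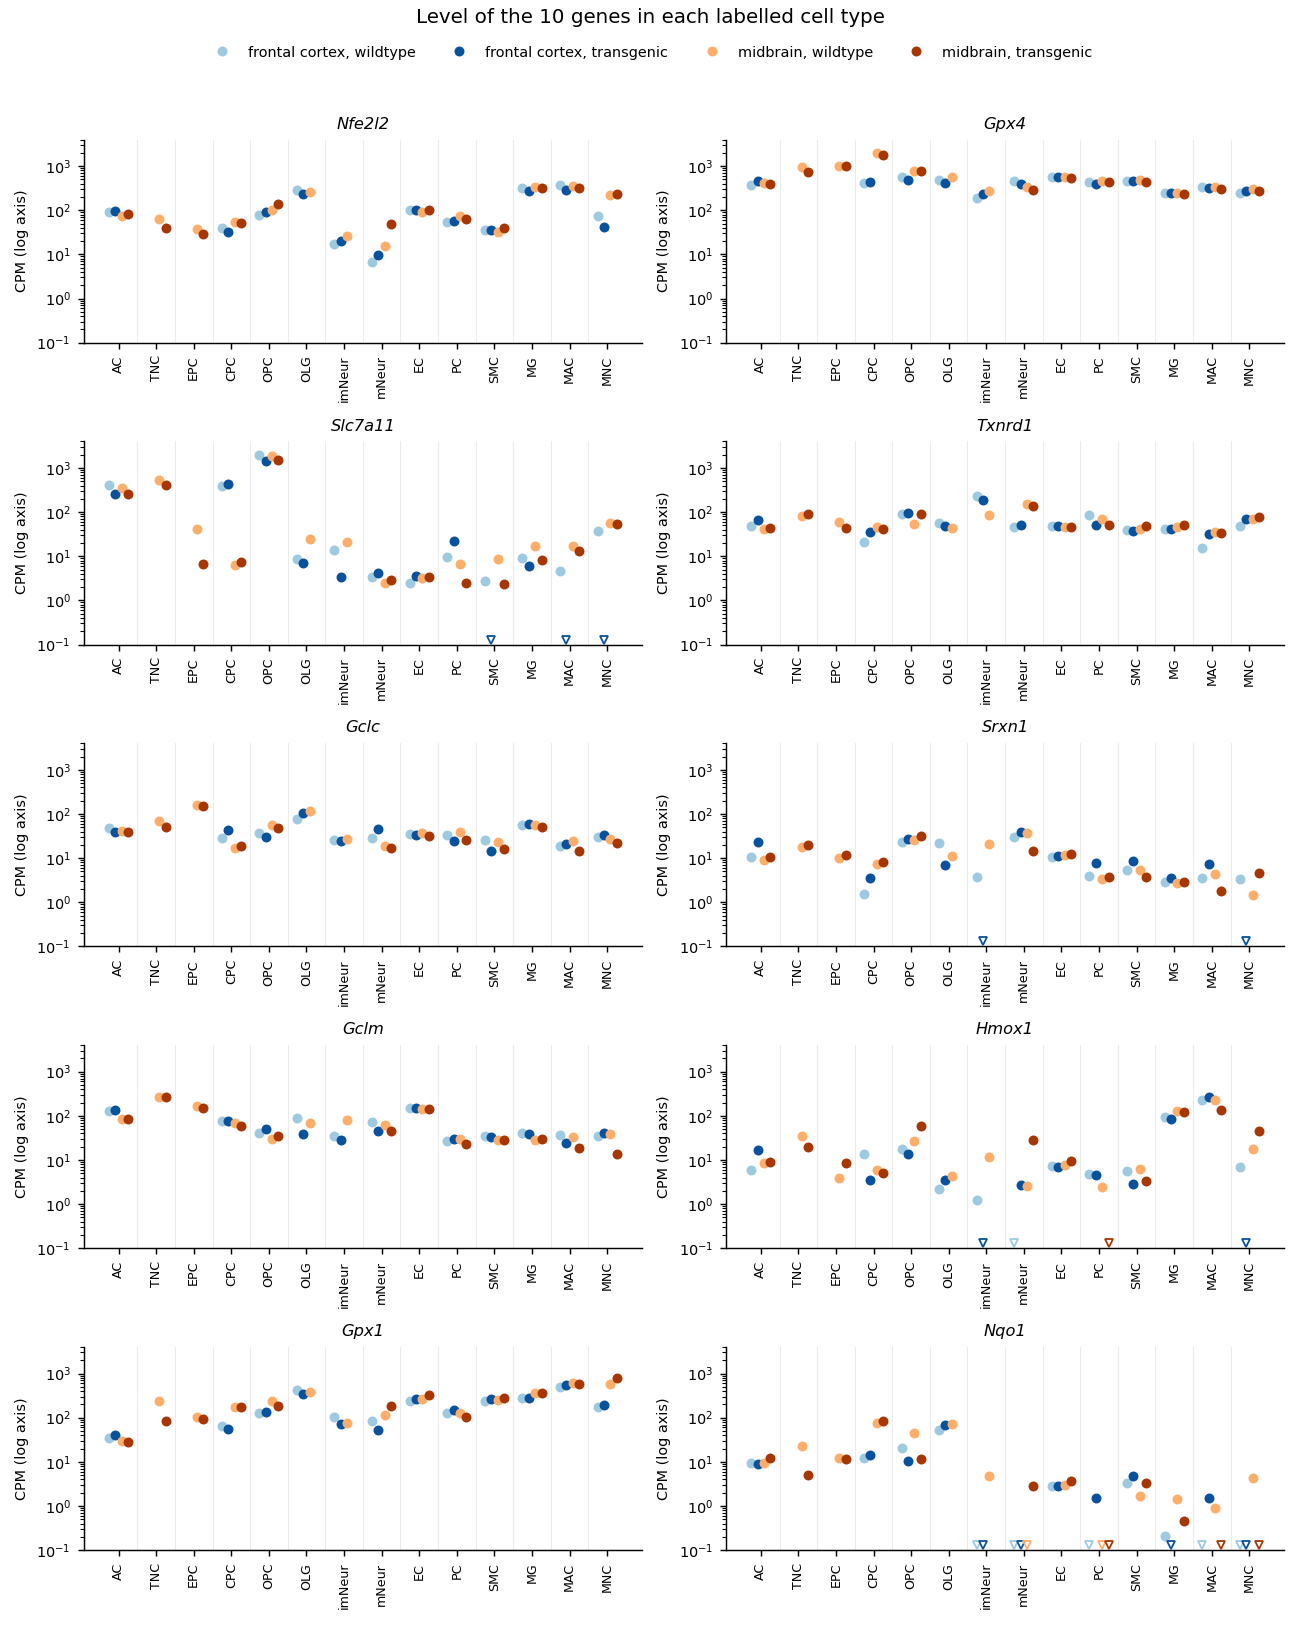
Level of each of the 10 genes (CPM, log axis) in each deposited label with at least 20 cells, with 1 point per library (light colours wildtype, dark colours transgenic, blue frontal cortex, orange midbrain); open triangles at the lower edge stand for 0 UMIs. Slc7a11 separates AC, TNC, OPC and frontal cortex CPC from the other labels, Hmox1 peaks in MAC and MG, and Gpx1 is lowest in AC.

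In frontal cortex astrocytes, the cystine carrier gene Slc7a11 was lower and the sulfiredoxin gene Srxn1 higher in transgenic cells, and Hmox1 and Txnrd1 had ratios above 0 that did not qualify as calls. Slc7a11 was at 261 CPM against 405 CPM in wildtype (1822 and 3440 UMIs), a log2 ratio of -0.63 (-0.72 to -0.55). Srxn1 was at 23.8 against 10.7 CPM (166 and 91 UMIs), a log2 ratio of 1.15 (0.77 to 1.54). Hmox1 was at 17.04 against 6.00 CPM (119 and 51 UMIs), a log2 ratio of 1.51 (1.02 to 2.01), and Txnrd1 at 67.2 against 48.6 CPM, 0.47 (0.27 to 0.66). The border macrophage markers, of the label with the highest Hmox1 level, summed to 5.01 against 6.47 CPM in these astrocytes, with 2 of 7 at 0 in the transgenic library, and the microglial markers were lower there as given above. A gene was called past the fold when it differed by at least 1.5 times and reached 20 CPM in at least 1 of the 2 libraries. By this rule 8 of the 10 genes were tested, all but Hmox1 and Nqo1, and 1 was higher (Srxn1) and 1 lower (Slc7a11), where 3.6% of 7120 genes were higher and 2.96% lower. The median log2 ratio of the 8 was 0.19, beside 0.01 over all genes tested.

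The other 6 differed by less. Gpx1 was at 41.4 against 34.0 CPM (0.28, 0.04 to 0.52), Gpx4 at 449.8 against 378 CPM (0.25, 0.18 to 0.32) and Gclm at 139 against 126 CPM (0.14, 0.01 to 0.26). Gclc was at 38.2 against 47.0 CPM (-0.30, -0.53 to -0.07). Nfe2l2, at 98.3 against 89.6 CPM (0.13, -0.02 to 0.28), and Nqo1, at 9.17 against 9.53 CPM (-0.06, -0.55 to 0.43), had intervals that held 0.

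The shares of cells with a UMI moved with these levels. At 3000 UMIs per cell, a Hmox1 UMI was found in 4.41% (2.95 to 6.31) of transgenic and 1.27% (0.64 to 2.26) of wildtype frontal cortex astrocytes, among 635 and 867 cells deep enough. Before thinning these shares were 10.02% and 4.22%. In endothelial cells of the same libraries the thinned shares were 2.30% and 2.04%, so the wildtype astrocyte share lay below that of endothelial cells. Hmox1 levels in wildtype frontal cortex were 6.00 CPM in astrocytes, 7.34 CPM in endothelial cells, 1.25 CPM in imNeur and 0 CPM in mNeur. The part of free RNA in these shares was not tested. The median depth before thinning was 6638.5 and 7983 UMIs in astrocytes and 8530.0 and 8180.5 UMIs in endothelial cells. For Slc7a11 the thinned shares were 45.2% (41.3 to 49.2) and 59.7% (56.4 to 63.0), and 58.2% and 72.4% before thinning. For Srxn1 they were 5.51% (3.87 to 7.58) and 3.81% (2.63 to 5.30), with intervals that overlap, beside 1.04% and 0.499% in microglia. Endothelial cells of the same libraries held Srxn1 at 11.1 and 10.5 CPM, beside 23.8 and 10.7 CPM in astrocytes. The wildtype astrocyte level was thus near that of endothelial cells.

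In midbrain astrocytes the Slc7a11 ratio was below 0 as well, at 258 against 355 CPM (2969 and 5846 UMIs), a log2 ratio of -0.46 (-0.53 to -0.40). It did not reach the fold, and 0 of 7 genes tested did, where 0.806% of 7075 genes were higher and 0.594% lower. Hmox1 (8.77 against 8.62 CPM, 0.02, -0.36 to 0.40) and Srxn1 (10.4 against 9.23 CPM, 0.17, -0.18 to 0.53) did not differ beyond counting error. Nfe2l2 was at 84.1 against 73.2 CPM (0.20, 0.08 to 0.32), Nqo1 at 12.4 against 9.59 CPM (0.37, 0.03 to 0.71) and Gpx4 at 393 against 418 CPM (-0.09, -0.14 to -0.03). The log2 ratios of Gclc, Gclm, Gpx1 and Txnrd1 lay between -0.11 and 0.12, with intervals that all held 0. A Slc7a11 UMI was found in 43.0% (40.2 to 45.9) of thinned transgenic and 55.8% (53.7 to 57.9) of thinned wildtype cells.

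The genotype ratio itself differed between the regions for some of the genes, as the difference of 2 log2 ratios with its counting interval. It was larger in frontal cortex by 1.48 (0.88 to 2.08) for Hmox1, 0.98 (0.47 to 1.48) for Srxn1, 0.35 (0.10 to 0.60) for Txnrd1, 0.35 (0.03 to 0.66) for Gpx1 and 0.34 (0.25 to 0.43) for Gpx4. For Slc7a11 the difference was -0.17 (-0.28 to -0.07), so the lower transgenic level was somewhat more marked in frontal cortex. For Nfe2l2, Nqo1, Gclc and Gclm the intervals held 0. Each of these differences rests on 4 libraries, and their spread between mice is unknown.

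**Figure D2:**
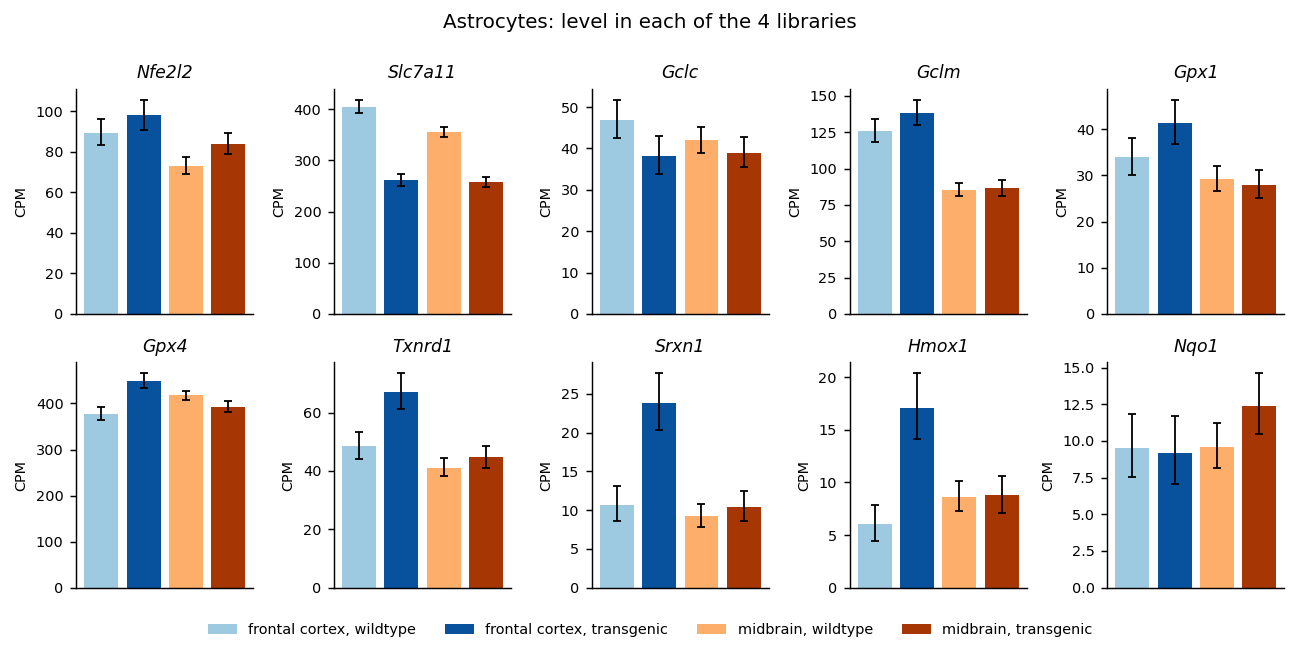
Level (CPM) of the 10 genes in the astrocytes of each of the 4 libraries, with bars from 0 and 95% exact Poisson intervals that cover counting error only. Slc7a11 is at 261 and 258 CPM in the transgenic libraries and 405 and 355 CPM in the wildtype ones, while Hmox1 and Srxn1 stand out in the transgenic frontal cortex library.

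**Figure D3:**
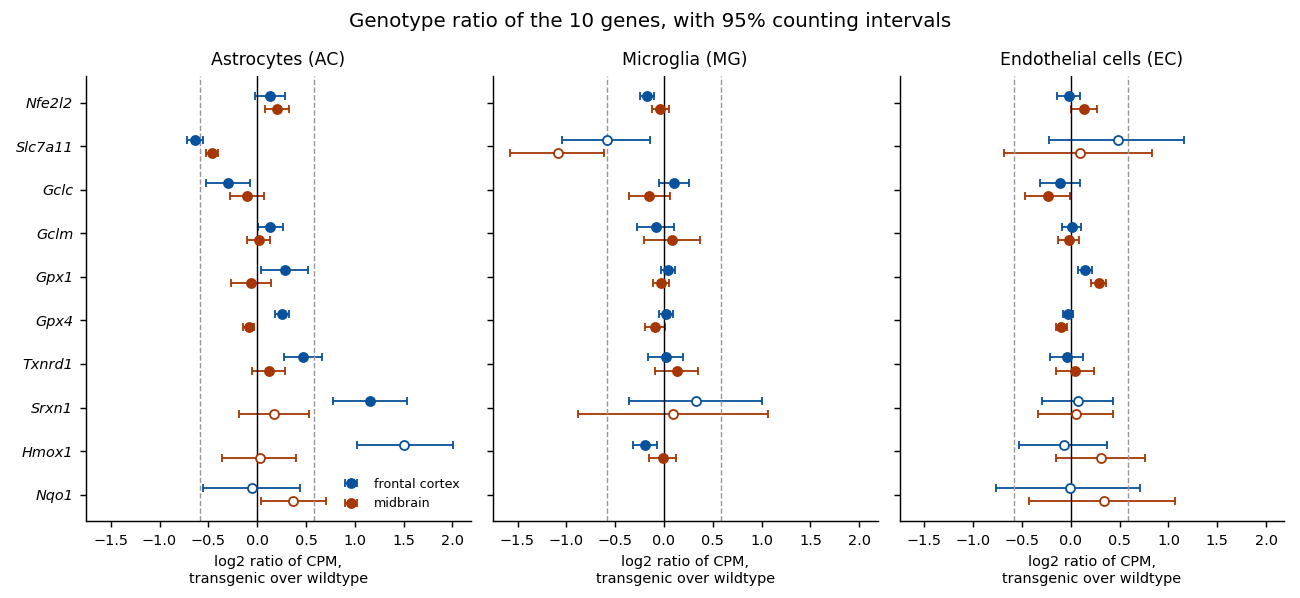
Log2 ratio of CPM, transgenic over wildtype, of the 10 genes in astrocytes, microglia and endothelial cells of frontal cortex (blue) and midbrain (brown), with 95% counting intervals. Dashed lines mark 1.5 times, open points are genes under 20 CPM in both libraries, and genes with under 4 UMIs in a library (Nqo1 in microglia) are left out. In astrocytes Slc7a11 lies left of 0 in both regions, and in microglia and endothelial cells no filled point lies past the dashed lines.

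Within frontal cortex the higher Hmox1 and Srxn1 levels were found in 2 of the 4 astrocyte clusters that the authors had deposited. In cluster 4, Hmox1 was at 36.1 against 9.58 CPM (32 and 5 UMIs; 1.91, 0.54 to 3.63) and Srxn1 at 45.2 against 9.58 CPM (40 and 5 UMIs; 2.24, 0.89 to 3.935). In cluster 11 Hmox1 was at 28.8 against 5.46 CPM (56 and 3 UMIs; 2.40, 0.78 to 4.72) and Srxn1 at 42.2 against 9.10 CPM (82 and 5 UMIs; 2.21, 0.93 to 3.87). In cluster 1, the largest, Hmox1 was at 7.23 against 6.08 CPM (0.25, -0.50 to 0.98) and Srxn1 at 11.5 against 10.6 CPM (0.12, -0.46 to 0.68). In cluster 22, with few counts, Srxn1 went the other way, at 2.40 against 17.04 CPM (1 and 6 UMIs; -2.83, -8.35 to 0.22), and Hmox1 had 4 against 0 UMIs. At 3000 UMIs per cell, the shares of cells with a Hmox1 or Srxn1 UMI had overlapping intervals between genotypes in clusters 4 and 11. Of the transgenic UMIs in cluster 11, the top 10 of 116 cells held 31 of 56 for Hmox1 and 45 of 82 for Srxn1. Genes past the fold were common in the small clusters, with 16.7% of genes higher and 13.1% lower in cluster 4, 17.4% and 9.7% in cluster 11, 20.8% and 12.7% in cluster 22, and 2.39% and 2.11% in cluster 1.

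Clusters 4 and 11 were also where the transgenic library had more of its cells. They held 309 and 116 of 868 transgenic against 205 and 34 of 1067 wildtype astrocytes. Of the transgenic Hmox1 UMIs 26.9% came from cluster 4 and 47.1% from cluster 11, which gave 12.7% and 27.9% of all astrocyte UMIs. Of the transgenic Srxn1 UMIs 24.1% and 49.4% came from them. Without these clusters, a setting chosen after the data were seen, the astrocyte log2 ratio became 0.37 for Hmox1 and -0.04 for Srxn1, and Srxn1 was no longer past the fold. Cluster 4 was shallow, with a median of 2287 and 1819 UMIs and 13.7% and 12.02% mitochondrial UMIs in transgenic and wildtype cells, and cluster 11 deep, at 17601 and 16010 UMIs. Microglial markers summed to 807 against 585 CPM in cluster 4 and 224 against 178 CPM in cluster 11, border macrophage markers to 11.3 against 11.5 and 1.03 against 0 CPM, and erythroid markers to 660.4 against 26.8 and 166 against 14.6 CPM, and their part in the Hmox1 difference was not tested.

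The Slc7a11 difference was found in other clusters. In frontal cortex cluster 1 it was at 269.9 against 441 CPM (-0.71, -0.81 to -0.60), while clusters 4 (152 against 136 CPM; 0.16, -0.26 to 0.60), 11 (293 against 275 CPM; 0.09, -0.17 to 0.36) and 22 (262 against 284 CPM; -0.12, -0.52 to 0.29) did not differ beyond counting error. In midbrain cluster 1 it was at 207 against 312 CPM (-0.59, -0.70 to -0.48), past the fold, where 1.38% of genes were higher and 0.678% lower. Clusters 3, 5 and 10 did not pass the fold, at -0.32, -0.38 and -0.30 with intervals below 0. The shares of all genes higher and lower were 3.21% and 2.3% in cluster 3, 2.02% and 1.33% in cluster 5 and 8.33% and 5.0% in cluster 10. Cluster 22 was at -0.77 on 13 and 33 UMIs, with an interval from -1.82 to 0.19, and cluster 4 at 0.14 (-0.27 to 0.54). In all, the ratio was below 0 in 7 of 10 clusters, with 5 intervals that excluded 0, and above 0 in 3, with 0 such intervals. Cluster 4 of each region was the shallowest or next to it in median depth.

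Of the remaining genes in the clusters, Txnrd1 was at 70.7 against 46.0 CPM in midbrain cluster 10 (0.62, 0.18 to 1.06), past the fold, and its ratio was above 0 in 8 of 10 clusters, with 3 intervals that excluded 0. Gclc was at 27.1 against 61.3 CPM in frontal cortex cluster 4 (24 and 32 UMIs; -1.18, -2.01 to -0.37) and at 22.7 against 53.2 CPM in midbrain cluster 4 (9 and 33 UMIs; -1.23, -2.48 to -0.13), where 12.2% of genes were higher and 17.4% lower. Nfe2l2 was at 118 against 78.3 CPM in frontal cortex cluster 11 (0.59, 0.11 to 1.09), past the fold, and inside it at 111 against 75.5 CPM in midbrain cluster 10 (0.55, 0.20 to 0.89). Gpx1 was higher in midbrain cluster 10 (52.2 against 33.9 CPM; 0.62, 0.10 to 1.13) and lower in midbrain cluster 4 (73.1 against 145 CPM; -0.99, -1.65 to -0.37). The remaining calls had intervals that held 0: Nqo1 in frontal cortex cluster 11 and midbrain cluster 4, Srxn1 in midbrain cluster 4, and Gclc, Txnrd1 and Nfe2l2 in midbrain cluster 22, where 23.7% of genes were higher and 24.8% lower. Gclm and Gpx4 were past the fold in 0 of 10 clusters each.

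**Figure D4:**
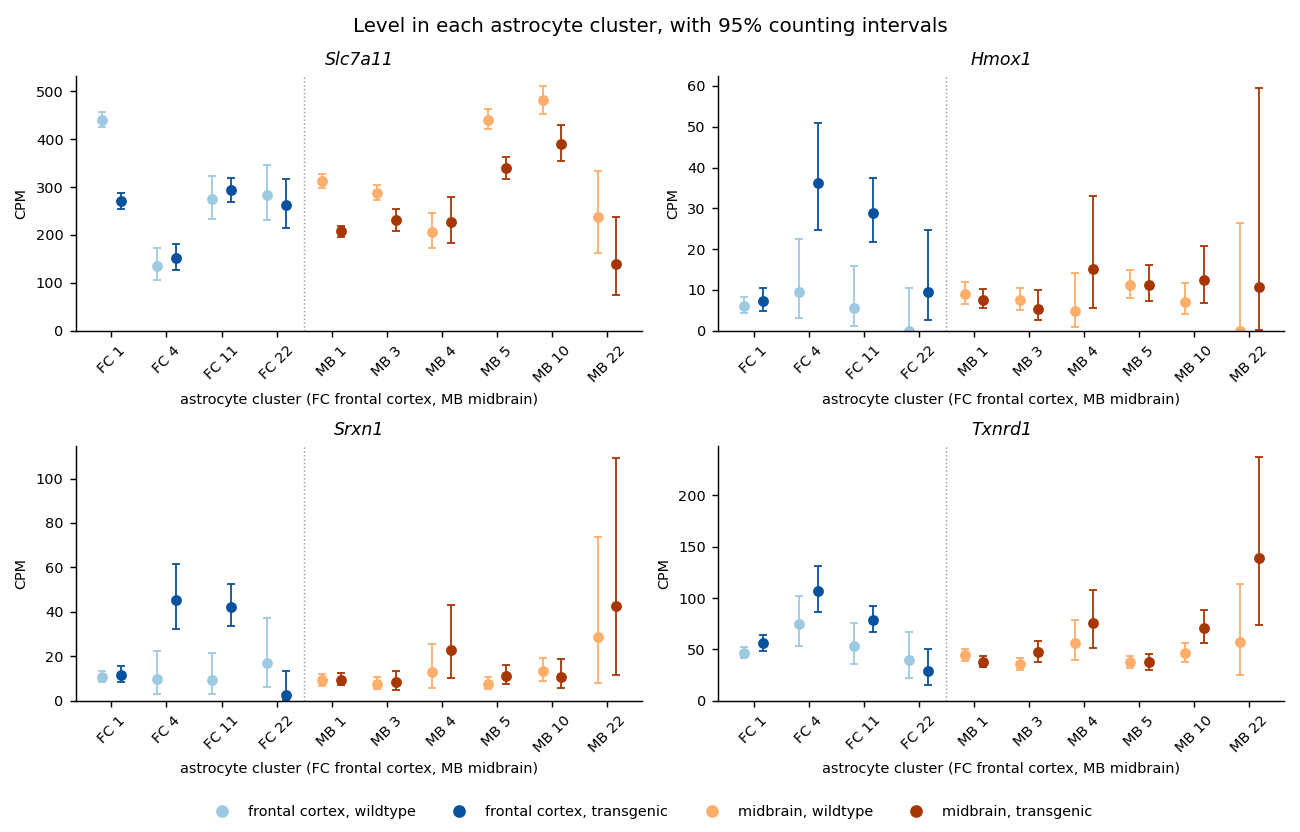
Level (CPM) of Slc7a11, Hmox1, Srxn1 and Txnrd1 in each deposited astrocyte cluster, transgenic (dark) beside wildtype (light), with 95% exact Poisson intervals. Transgenic Hmox1 and Srxn1 stand above wildtype in frontal cortex clusters 4 and 11 with intervals that do not overlap, and in cluster 1 the intervals overlap, while Slc7a11 stands below wildtype in cluster 1 of both regions.

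The lower Slc7a11 level in astrocytes as a whole kept its sign under each of 12 alternative scalings and cell filters in frontal cortex and 11 in midbrain, with log2 ratios from -0.84 to -0.22 in frontal cortex and from -0.60 to -0.24 in midbrain. In frontal cortex it fell short of the fold when cells were limited to those with 500 genes and under 10% mitochondrial UMIs (-0.56) or to those under 5% (-0.50), with mitochondrial and ribosomal protein genes out of the total (-0.57), and with the 4 clusters weighted alike (-0.22). It was -0.81 in frontal cortex and -0.24 in midbrain when cells with an erythroid UMI were left out, which kept 97 of 868 transgenic and 906 of 1067 wildtype cells in frontal cortex and 231 of 1512 and 1987 of 2644 in midbrain. That setting was also chosen after the data were seen. The Hmox1 ratio without these cells was 2.21 in frontal cortex and 0.13 in midbrain, and that of Srxn1 1.995 and 0.26. Leaving out cells with at least 4 UMIs of other cell types' markers, which kept 202 and 243 frontal cortex cells, gave 2.61 for Hmox1 and 1.83 for Srxn1, and thinning gave 1.91 and 0.68.

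In microglia 0 of the 7 genes tested passed the fold in either region. The shares of all genes tested were 1.26% higher and 0.974% lower in frontal cortex, and 0.954% and 2.47% in midbrain. Hmox1, which microglia hold at a high level, was at 83.4 against 95.7 CPM in frontal cortex (-0.20, -0.32 to -0.07) and 125 against 126.0 CPM in midbrain (-0.01, -0.15 to 0.12). Nfe2l2 was at 279.5 against 315 CPM (-0.17, -0.24 to -0.11) and 321 against 329 CPM (-0.04, -0.12 to 0.05). The log2 ratios of the other 5 genes over 20 CPM (Gclm, Gclc, Txnrd1, Gpx1 and Gpx4) lay between -0.15 and 0.13, with intervals that all held 0. Slc7a11 was under 20 CPM, at 6.00 against 9.00 CPM (-0.58, -1.04 to -0.14) and 8.18 against 17.4 CPM (-1.09, -1.57 to -0.62). The 12 astrocyte markers in microglia summed to 684 against 356 CPM in frontal cortex, with 12 of 12 higher, and to 459 against 950 CPM in midbrain, with 0 of 12 higher, and their part in the Slc7a11 values was not tested.

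In endothelial cells too, 0 of the 6 genes tested passed the fold, where 1.09% and 1.03% of genes were higher and lower in frontal cortex, and in midbrain 0.929% and 0.943%. The largest difference past counting error was that of Gpx1, with ratios above 0 in both regions, at 268 against 243 CPM (0.14, 0.07 to 0.21) and 323 against 265 CPM (0.29, 0.21 to 0.36). In midbrain Gclc was at 31.3 against 36.9 CPM (-0.24, -0.47 to -0.009) and Nfe2l2 at 101 against 92.3 CPM (0.14, 0.003 to 0.27). Their intervals held 0 in frontal cortex, and those of Txnrd1 held 0 in both regions. Gclm, which with Gpx4 was highest in endothelial cells among the labels of frontal cortex, was at 151 against 150.1 CPM (0.01, -0.09 to 0.10) and 143 against 145 CPM (-0.02, -0.13 to 0.09). Gpx4 was at 558 against 569.8 CPM (-0.03, -0.08 to 0.02) and 528 against 564 CPM (-0.10, -0.15 to -0.04).

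The smaller labels are given with the number of the 10 genes tested in each. In border macrophages of midbrain (70 and 157 cells) 3 of 7 genes tested were lower and 0 higher, where 10.4% of genes were higher and 12.9% lower. Hmox1 was at 136 against 234 CPM (74 and 264 UMIs; -0.78, -1.17 to -0.40), and Gclm and Gclc were lower on 8 to 38 UMIs with intervals that held 0. In those of frontal cortex Hmox1 was at 261 against 226 CPM (0.21, -0.10 to 0.51), Nfe2l2 at 284 against 381 CPM (-0.42, -0.69 to -0.16), and of 7 genes tested 1 was higher (Txnrd1) and 1 lower (Gclm), where 7.69% and 12.7% were. In frontal cortex pericytes Txnrd1 was at 50.04 against 85.8 CPM (-0.78, -1.40 to -0.19) and Slc7a11 was called higher on 15 and 10 UMIs, out of 7 tested, where 9.47% of genes were lower and 7.49% higher. In frontal cortex smooth muscle cells 1 of 6 genes tested was called: Gclc was at 14.3 against 25.3 CPM (-0.82, -1.72 to -0.02), where 4.35% of genes were higher and 5.72% lower. In frontal cortex mNeur Gpx1 was at 52.2 against 83.4 CPM (-0.67, -1.33 to -0.03), beside Gclm lower and Gclc higher with intervals that held 0, out of 6 tested, where 10.6% of genes were lower and 14.8% higher. In midbrain pericytes Gclc, of 6 genes tested, was called lower on 20 and 48 UMIs, where 5.47% of genes were higher and 8.32% lower. In frontal cortex imNeur, midbrain CPC and midbrain smooth muscle cells 0 of the 5, 6 and 6 genes tested passed the fold; there 9.92%, 1.41% and 1.74% of genes were higher and 10.3%, 3.85% and 2.66% lower. Over the 15 label comparisons, Slc7a11 had 5 intervals below 0 and 0 above it: astrocytes and microglia of both regions and midbrain smooth muscle cells, the last at 2.34 against 8.89 CPM.

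The regions were compared within a genotype, with the midbrain value first, on the astrocytes of 2 separately deposited tables of unscaled counts. Among wildtype astrocytes 0 of 7 genes tested passed the fold between midbrain and frontal cortex, where 6.58% of 7193 genes were higher in midbrain and 7.06% lower. Gclm came nearest, at 85.6 against 126 CPM (-0.56, -0.67 to -0.44). Among transgenic astrocytes 3 of 8 were lower in midbrain, where 8.45% of 7323 genes were higher and 8.6% lower. These were Gclm at 86.6 against 139 CPM (-0.68, -0.81 to -0.55), Srxn1 at 10.4 against 23.8 CPM (-1.19, -1.54 to -0.84) and Txnrd1 at 44.7 against 67.2 CPM (-0.59, -0.77 to -0.40). The intervals of Gclm, Txnrd1, Nfe2l2 and Gpx1 lay below 0 in both genotypes. Slc7a11 was at 258 against 261 CPM in transgenic (-0.02, -0.10 to 0.07) and 355 against 405 CPM in wildtype cells (-0.19, -0.25 to -0.13). Its interval held 0 between the transgenic libraries. The 2 region comparisons and the 2 genotype comparisons use the same 4 libraries.

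The wider pathway was followed in 9 gene lists around these 10 genes. In astrocytes, 0 of the tested genes of 7 lists passed the fold in either region: NRF2 regulators and partners (8 tested of 11), other NRF2 targets (19 of 23), glutathione synthesis and use (16 and 19 of 27), superoxide and peroxide removal (6 of 6), haem and iron handling (11 of 15), selenoproteins (11 of 15) and ferroptosis (8 and 7 of 10). Of all genes tested, 3.6% were higher and 2.96% lower in frontal cortex, and only 0.806% and 0.594% in midbrain. Among the NRF2 partners Keap1 was at 30.9 against 30.4 CPM in frontal cortex and 32.5 against 30.7 CPM in midbrain, Sqstm1, which binds KEAP1, at 125 against 107 and 94.8 against 82.2 CPM, and Mafg, a small MAF gene, at 108 against 96.9 and 90.2 against 82.0 CPM. The median log2 ratio of the other NRF2 targets was 0.15 in frontal cortex, beside 0.01 over all genes tested, and -0.13 in midbrain, beside -0.00. Fth1, the ferritin heavy chain, went opposite ways, at 2484 against 1883 CPM (0.40, 0.37 to 0.43) and 1610 against 1865 CPM (-0.21, -0.24 to -0.19). Gsr, which recycles oxidised glutathione, was at 42.8 against 29.2 CPM in frontal cortex (0.55, 0.31 to 0.80) and 24.9 against 25.2 CPM in midbrain (-0.02, -0.24 to 0.20). Slc3a2, the heavy chain that pairs with the Slc7a11 product, was at 314 against 284 CPM (0.15, 0.06 to 0.23) and 341 against 346 CPM (-0.02, -0.08 to 0.04), beside -0.63 and -0.46 for Slc7a11.

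The 2 remaining lists held the genes past the fold. Of the thioredoxin and peroxiredoxin genes (11 tested of 14), 0 were higher and 1 was lower in each region, where 2.96% of all genes tested were lower in frontal cortex and 0.594% in midbrain. That gene was Txnip, which binds and inhibits thioredoxin, at 23.6 against 61.8 CPM in frontal cortex (-1.39, -1.65 to -1.13) and 21.7 against 36.6 CPM in midbrain (-0.75, -0.97 to -0.54). Of the ATF4 targets (8 tested of 13), 2 were higher in frontal cortex and 1 in midbrain, and 0 lower, where 3.6% and 0.806% of all genes tested were higher. Nupr1, a stress-responsive chromatin protein gene, was at 298 against 127 CPM (1.23, 1.12 to 1.33) in frontal cortex and at 21.1 against 9.84 CPM (1.10, 0.81 to 1.40) in midbrain, and Slc7a5, a carrier of large amino acids, at 61.2 against 38.6 CPM (0.66, 0.45 to 0.88) in frontal cortex. Atf4 itself was at 89.8 against 69.3 CPM (0.37, 0.21 to 0.54) and 67.5 against 53.0 CPM (0.35, 0.21 to 0.49), while Slc7a11, also known as an ATF4 target, had ratios below 0 in both regions. Phgdh, of serine synthesis, was at 271 against 328 CPM (-0.27, -0.36 to -0.19) and 203 against 228 CPM (-0.16, -0.24 to -0.09).

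Of the NRF2 regulators in endothelial cells, 1 of 10 tested was lower in frontal cortex and 2 of 9 in midbrain, and 0 were higher, where 1.03% and 0.943% of all genes tested were lower. Maff, another small MAF gene, was lower in both regions, at 31.5 against 68.3 CPM (-1.12, -1.31 to -0.92) in frontal cortex and 31.1 against 61.6 CPM (-0.98, -1.20 to -0.77) in midbrain. Txnip was lower there as well, at 247 against 391 CPM (-0.66, -0.73 to -0.59) and 217 against 433 CPM (-0.996, -1.08 to -0.92), as was Ddit4, a stress-induced inhibitor of growth signalling (-0.78 and -0.83). In each region 1 of 11 thioredoxin and peroxiredoxin genes tested and 1 of 5 ATF4 targets were lower in endothelial cells, and 0 higher. Bach1, the repressor that competes with NRF2, was at 80.8 against 128 CPM in midbrain endothelial cells (-0.66, -0.80 to -0.53). Of the other NRF2 targets in microglia, 1 of 15 tested was higher in frontal cortex and 2 of 15 lower in midbrain. Of the glutathione genes 1 of 12 was higher and 1 of 11 lower in the same order. Of the ATF4 targets 1 of 8 and 1 of 9 were lower. Of the thioredoxin genes 0 of 11 and 1 of 12 were lower. The lists share genes. The remaining lists held 0. Of all genes tested, 1.26% were higher and 0.974% lower in frontal cortex, and 0.954% and 2.47% in midbrain. In microglia Ddit4 was lower (-2.04 and -1.05) and Gstp1, a glutathione transferase, higher in frontal cortex (28.7 against 17.9 CPM; 0.68, 0.44 to 0.93). Midbrain microglia held less Prdx6 (46.1 against 94.4 CPM; -1.03) and Gstm1 (21.6 against 40.9 CPM; -0.92), both of which astrocytes held at 787 CPM or more, in the same libraries where the astrocyte markers summed to 459 against 950 CPM; the part of astrocyte RNA in these differences was not tested. Genes with near-identical relatives, such as Gstm1, Gstp1 and Fth1, may have reads split by the authors' counting.

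Across 38 combinations of label and library with at least 50 cells, the genes other than Nqo1 were described by those whose log2(CPM + 1) was most like theirs. The 3 nearest were Hpgd, Ctsb and Hexa for Hmox1 (Pearson r 0.89 to 0.91), Rnf130, Ly96 and Hfe for Nfe2l2 (0.89 to 0.90), Arpc2, Rplp1 and Rpl10 for Gpx1 (0.90 to 0.93) and Hint2, Mcee and Etfb for Gpx4 (0.87 to 0.90). They were Slc41a1, F3 and Aldh1a1 for Slc7a11 (0.83 to 0.86), of which F3 is in the astrocyte marker list, Cd320, Nudt12 and Osbpl1a for Gclm (0.85 to 0.88) and Mcm7, Uba1 and Pclaf for Txnrd1 (0.84 to 0.87). For Srxn1 they were Zfp941, Cadps2 and Ptprd (0.74 to 0.76) and for Gclc Mib2, Itm2c and Fbxw10 (0.70 to 0.73). Among the 10 genes themselves the highest value was 0.82, between Hmox1 and Nfe2l2, and the lowest -0.50, between Hmox1 and Txnrd1. Points of the same library share its depth and free RNA, and points of the same label its cells, so these values describe the pattern and carry no test.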

How the data were processed

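The authors deposited 1 table of raw UMI counts per region, made with Cell Ranger 3.0.0 and Seurat 3.1.5 on mm10, per the submitters' processing notes. The deposited cell tables give each cell's library, cluster, cell type label and mitochondrial share in percent. Which cells were filtered out and whether doublets were removed is not given in the sources used here; no doublet caller was run, and doublets are weighed only through the filter on other cell types' markers.

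Counts were summed per label or cluster and library and scaled to CPM (Python 3.11.15, numpy 2.4.6, scipy 1.17.1, pandas 2.3.3). CPM have exact Poisson intervals, shares of cells exact Clopper-Pearson intervals, and log2 ratios exact intervals conditional on the sum of both counts. Differences of 2 log2 ratios between regions have intervals from a normal approximation. All are at 95% and for counting error only. In a ratio, a count of 0 was set to a floor of 3 UMIs over the group where the other count was above 3. Otherwise a count of 0 gave no ratio. Levels are given for labels with at least 20 cells, ratios for labels with at least 50 cells in each library (15 comparisons) and for clusters with at least 20. The interval code was tested on simulated data. Coordinates are from GENCODE on GRCm38, the assembly that mm10 names, and promoter windows from RefSeq. Named are the 10 genes, list genes past the fold, the most abundant others, and the 3 genes most like each (those of Nqo1 are not reported here); Keap1, Gsr, Atf4 and the list genes named in microglia and endothelial cells fall outside this rule and were chosen after their values were seen. The 10 genes, the lists and the markers were chosen with earlier results of these data known.

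Alternatives were edgeR 4.0.16 TMM factors, DESeq2 1.42.0 size factors (both as scaling only), other totals, thinning, cell filters, other folds and minimums, and 2 cell filters added after the data were seen.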

Additional observations from a re-analysis of the deposited data

Results flagged for a closer look

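Gpx4 in astrocytes had genotype differences of opposite sign in the 2 regions. The log2 ratio, transgenic over wildtype, was 0.25 in frontal cortex and -0.09 in midbrain, each with a counting interval that excluded 0. Whether the regions differ beyond the spread between mice was not tested, since each group is 1 library.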

How the results depend on the processing

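No paired analysis was possible because each group has only replicate 1, and no replicate could be left out. Shares over all genes were computed only at 1.5 times and 20 CPM with all cells, so the counts at other settings stand without one. In frontal cortex astrocytes 2 of the 8 genes tested passed the fold, where 3.6% of all genes tested were higher and 2.96% lower. The count was 1 with cells under 10% mitochondrial UMIs and at least 500 genes, with cells under 5%, with mitochondrial and ribosomal protein genes out of the total, at 2 times or at a minimum of 50 CPM, and 5 at 1.2 times. It was 4 without cells holding at least 4 UMIs of other types' markers. Of the settings added after the data were seen, it was 4 without cells with an erythroid UMI and 1 without clusters 4 and 11. With no minimum CPM Hmox1, at 2.84 times, passed as well, and with clusters weighted alike Hmox1 passed and Slc7a11 did not. In midbrain astrocytes 0 became 1 without cells holding other types' markers or at 1.2 times. In microglia 0 became 1 in frontal cortex and 2 in midbrain with no minimum CPM, and 1 in midbrain with clusters weighted alike. The 1 in frontal cortex was Nqo1, at 0 against 3 UMIs, which has no ratio under the rule used elsewhere. In midbrain endothelial cells 0 became 1 at 1.2 times. Between regions, the wildtype count of 0 became 1 with thinned cells, under 5% mitochondrial UMIs or without cells holding other types' markers, and 2 at 1.2 times, and the transgenic count of 3 became 1 at 2 times. Among log2 ratios whose interval excluded 0, the sign changed for Gclm in frontal cortex (-0.13 thinned, -0.12 without cells holding other types' markers, -0.12 with clusters alike), Srxn1 there (-0.042 without clusters 4 and 11) and Gpx4 (-0.00057 in frontal cortex with clusters alike; in midbrain 0.023 as a per-cell mean, 0.0064 without cells holding other types' markers, 0.000396 without erythroid UMIs). Of the ratios whose interval held 0, those of Gclm, Srxn1, Hmox1 and Gpx1 in midbrain and Nqo1 in frontal cortex took the other sign under at least 1 alternative. Causes were not tested beyond the cells each setting left out. The label with the highest level was the same for 30 to 38 of 40 pairs of gene and library under 7 alternatives. Low counts limit Hmox1, Nqo1 and Srxn1 outside their highest labels, and the spread between mice is unknown.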
